A study of Homo sapiens with 4 samples.

Results

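The genes described here were 48 genes of epithelial identity, epithelial-mesenchymal transition and cell adhesion, taken by symbol from the 18134 genes of the expression table. They were 13 epithelial genes, 19 mesenchymal genes including the TGF-beta pathway, and 16 matrix-adhesion genes. The table came from PC9, a human lung adenocarcinoma line with an activating EGFR mutation, in which TPX2, a spindle assembly factor that activates Aurora A kinase, had been partly depleted. The shNC group carried a negative control short hairpin and the shTPX2 group a hairpin against TPX2. Both were delivered by lentivirus to the same parental line and followed by antibiotic selection for stable lines, so the control cells had also been infected and selected. Each group had 2 libraries of poly(A)-selected RNA, named shNC 1, shNC 2, shTPX2 1 and shTPX2 2, and the sample titles name no batch. The labels do not say whether libraries of a group came from separate cultures, so p-values measure the spread between these samples, which may be technical. The hairpin group rests on 1 hairpin sequence, so effects of TPX2 loss and of that hairpin cannot be told apart.

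Epithelial cells hold together through E-cadherin junctions and claudin-sealed tight junctions, and rest on a basement membrane of laminin and collagen IV through integrins. In epithelial-mesenchymal transition, factors of the SNAI, ZEB and TWIST families repress those junction genes, and cells make N-cadherin, vimentin and fibronectin instead. TGF-beta is the best known inducer of that programme, and lung adenocarcinoma lines span the range between both states.

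Totals of expected counts, the authors' estimate of the reads of each gene, ran from 20906441 to 21972583 per library, and libraries correlated at r = 0.966 to 0.983 (Pearson, log2 CPM, counts scaled to library size, across genes). The closest pair was shNC 1 with shTPX2 1, which belong to different groups. TPX2 itself stood at 55.0 and 112 TPM (transcript abundance, reads per transcript length scaled to a fixed library total) in the shNC libraries and at 43.4 and 43.8 TPM in the shTPX2 libraries. Its log2 fold change was -0.81 (SE 0.32, edgeR adjusted p = 0.618), -0.25 without shNC 2 and -1.22 without shNC 1. The epithelial markers KRT7, KRT8, KRT18, KRT19 and MUC1 were high in every library, while NKX2-1, NAPSA and SFTPB, which mark the lung lineage, were at 0.04 to 1.67 TPM, and 7 fibroblast markers summed to 0.19 to 0.55 TPM. The endothelial list summed to 19.9 to 36.5 TPM, nearly all of it PECAM1 and CDH5, and the leukocyte list to 135 to 254 TPM, most of it CD68.

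Across the 48 genes the clearest differences were in mesenchymal and matrix genes, and all of those were lower in shTPX2. Fibronectin (FN1), the ligand TGFB2, its receptor TGFBR1, and the metalloproteinases MMP1 and MMP14 had an unadjusted edgeR p under 0.05, and no member did so in the higher direction. No member passed the edgeR test after adjustment over all genes, and 0% of the 14048 tested genes did. The epithelial genes differed less between the groups, with a median log2 fold change of -0.05 against -0.47 for the mesenchymal and -0.40 for the matrix-adhesion genes and -0.01 for all tested genes. RNA was taken from whole cultures, so fewer cells in a mesenchymal state and less RNA per cell cannot be told apart.

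In counts, 46 of the 48 genes had enough reads to be tested, and 34 of them had a fold change below 0, against 51.1% of all tested genes. The 5 genes lower at an unadjusted p under 0.05 compare with 4.9% of all genes lower, 3.13% higher and 8.03% in either direction. By the criteria of the study's methods (limma voom with a p no larger than 0.1, unadjusted, and a log2 change no smaller than 0.3 in either direction), 8 members were lower and 0 higher, beside 7.99% and 6.24% of all genes. These were the same 5 with AXL, ITGB6 and LAMB3. Scaling by library size alone gave 4.11% of all genes higher and 10.3% lower by those criteria, and 12 members lower and 0 higher. DESeq2 called FN1, TGFB2 and MMP14 lower after adjustment, as it did 0.566% of its 13775 genes, and gave no adjusted p for MMP1 and ZEB2. In the higher direction it called 0 members and 0.24% of its genes. ZEB2 and MMP1 passed the filter on low counts only through the shNC libraries. Such genes had to be lower to be tested at all, so the counts and medians above carry that limit. With at least 10 counts required in every library, the median log2 fold change was -0.40 for the mesenchymal and -0.28 for the matrix-adhesion genes. It was -0.06 for the epithelial genes. The 2 untested members were at the edge of detection: TWIST1, a basic helix-loop-helix inducer of the transition, had 2 and 1 counts in shNC and 0 in both shTPX2 libraries, and MMP2, the gelatinase, had 9, 18, 7 and 5.

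**Figure D1:**
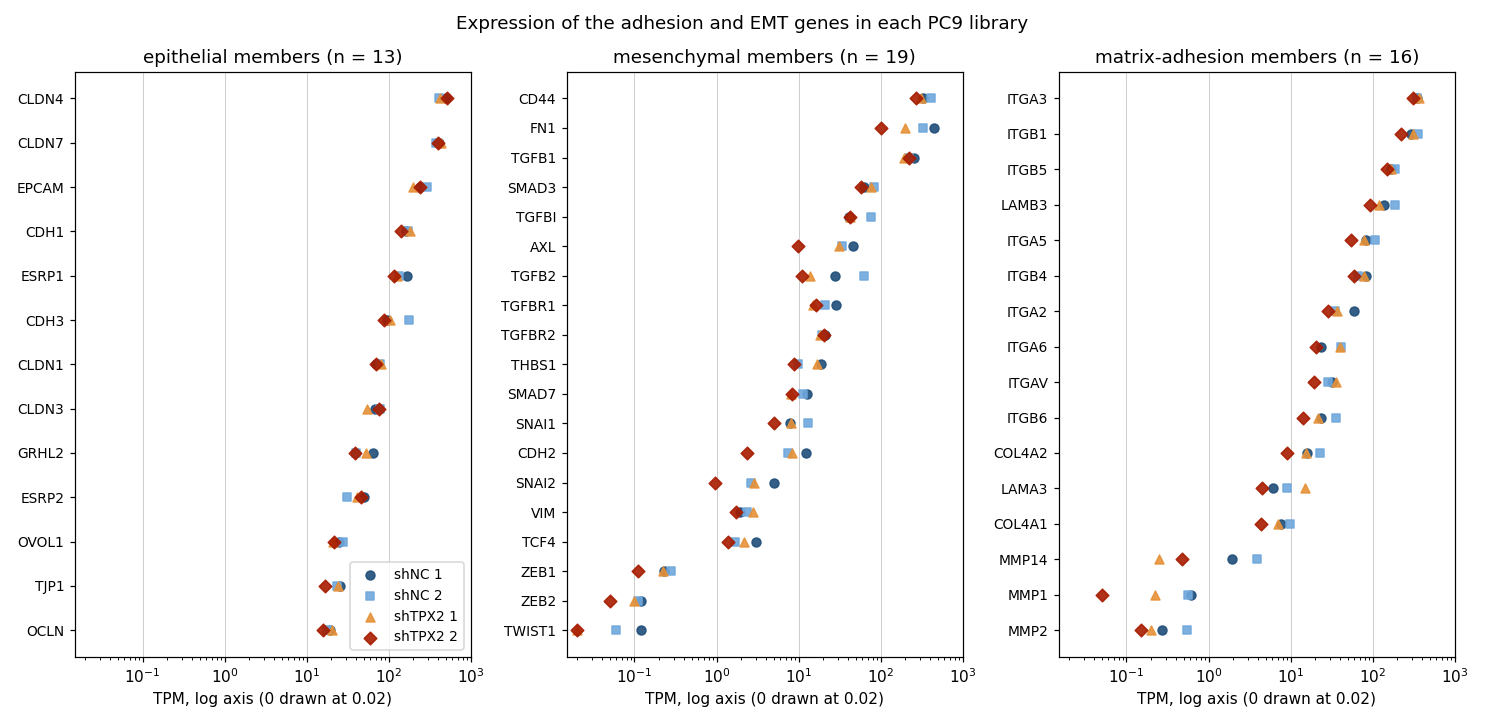
Expression of the 48 genes in each library as TPM on a log axis, 1 row per gene, with the epithelial, mesenchymal and matrix-adhesion genes in separate panels and 1 point per library (a value of 0 is drawn at the left). The epithelial genes sit between 16.0 and 512 TPM, with CDH3 spread from 88.85 TPM in shTPX2 2 to 178 TPM in shNC 2. FN1, TGFB2 and MMP14 show both shTPX2 libraries to the left of both shNC libraries.

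Among the epithelial adhesion molecules, CDH1 (E-cadherin, the adherens junction cadherin of epithelia) was at 164 and 172 TPM in the control libraries and at 180 and 141 TPM under shTPX2. The shTPX2 libraries lay on either side of both control libraries, so the groups overlapped, and the log2 fold change was 0.06 (SE 0.20, adjusted p = 0.955). The sign turned with 1 library or with the scaling, at -0.14 without shTPX2 1 and -0.01 by library size alone. EPCAM, an epithelial surface adhesion molecule, was at 238 and 293 TPM in the control libraries and 201 and 239 TPM under shTPX2. The ranges overlapped there too, with a log2 fold change of -0.15 (SE 0.19, adjusted p = 0.869). CDH3 (P-cadherin) was high only in shNC 2, at 178 TPM against 88.9 to 104 TPM in the other 3 libraries.

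None of the 6 tight junction genes reached an unadjusted edgeR p under 0.05. The claudins CLDN4 and CLDN7 were the most abundant epithelial genes at 380.0 to 512 TPM, CLDN1 and CLDN3 were at 53.8 to 79.7 TPM, and occludin (OCLN) and the scaffold TJP1 at 16.0 to 25.7 TPM. Their log2 fold changes ran from -0.13 for TJP1 to 0.20 for CLDN7. In CPM CLDN7 was the 1 member higher in both shTPX2 libraries than in both shNC libraries, where 19.4% of all genes were, although its TPM values overlapped and its adjusted p was 0.797 (SE 0.18). Of the regulators that maintain the epithelial state, the splicing factors ESRP1 and ESRP2 and the transcription factors GRHL2 and OVOL1 had log2 fold changes of -0.20 to 0.16. None of the 13 epithelial genes reached an unadjusted edgeR p under 0.05, the criteria of the study or the DESeq2 threshold. Of all genes 8.03% reached the first and 14.2% the second in either direction. DESeq2 called 0.24% higher and 0.566% lower. With 13 genes, a count of 0 does not by itself set them apart.

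The transition factors SNAI and ZEB bind the letters CACCTG. RefSeq (GRCh38.p14) gave start windows for 34 of the 48 genes. Only 6 of the 13 epithelial genes had a window, and CDH1 and EPCAM had none, so they were not searched. CACCTG on either strand (CAGGTG on the other) occurred in 17.5% of 35116 windows of 250 bases before a start. Among the members it was in 17 of 77 windows. Of the members with windows, CLDN7 had the most matches, 4. All were in the inner of its 2 start windows, which lies inside the gene, and its outer window held 0. A match is only a description of the letters, and binding was not measured.

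The members that drive the transition were low in PC9, and those tested were lowest in shTPX2 2. TWIST2, which is not a member and belongs to the wider list of mesenchymal markers, differed from them. It was at 13.35 and 19.45 TPM in the control libraries and 19.81 and 17.4 TPM under shTPX2. Its lowest library was shNC 1, and its log2 fold change was 0.30 (SE 0.27, adjusted p = 0.805). ZEB1 had 16 and 19 counts in shNC and 15 and 7 in shTPX2, which is 0.11 to 0.28 TPM, and ZEB2 had 5 to 12 counts. Both ZEB genes were lower in both shTPX2 libraries than in both shNC libraries, by 1 count in the closest case, with log2 fold changes of -0.59 (SE 0.55, adjusted p = 0.811) and -0.54 (SE 0.57, adjusted p = 0.839). SNAI2 (Slug) was at 5.00 and 2.66 TPM in the control libraries and 2.85 and 0.95 TPM under shTPX2, with shTPX2 1 between the control libraries. Its log2 fold change of -0.88 (SE 0.62, adjusted p = 0.766) became -0.29 without shTPX2 2 and -1.91 without shTPX2 1. SNAI1 (Snail) ran from 4.98 to 12.9 TPM and TCF4, the E protein E2-2, from 1.39 to 3.05 TPM, both with overlapping groups.

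Of the mesenchymal markers, FN1 (chr2:215360865-215436068, GRCh38.p14) was abundant and was the marker with the clearest difference. FN1 encodes fibronectin, the matrix glycoprotein that integrins alpha5-beta1 and alphaV bind. It stood at 452 and 331 TPM in the control libraries and 196 and 100.2 TPM under shTPX2. Both shTPX2 libraries were below both controls, and the group means were 391 ± 85.7 and 148 ± 67.9 TPM (SD, n = 2). The log2 fold change was -1.27 (SE 0.36, edgeR adjusted p = 0.579, DESeq2 adjusted p = 0.0333), and it ran from -1.84 to -0.86 when 1 library was left out, with an unadjusted p under 0.05 in all 4 such fits.

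CDH2 (N-cadherin, the cadherin that replaces E-cadherin in mesenchymal cells) was at 12.3 and 7.45 TPM in the control libraries and 8.41 and 2.37 TPM under shTPX2. The value of shTPX2 1 lay between the controls and only shTPX2 2 was below them, so the log2 fold change of -0.79 (SE 0.61, adjusted p = 0.780) was -0.13 without shTPX2 2 and -2.05 without shTPX2 1. The ratio of CDH1 to CDH2 TPM was 13.3 and 23.1 in shNC and 21.4 and 59.7 in shTPX2. AXL, the receptor tyrosine kinase linked to the mesenchymal state and to EGFR inhibitor resistance, was at 45.4 and 34.1 TPM in the control libraries and 31.5 and 9.80 TPM under shTPX2. Both shTPX2 values were below both controls in TPM, but the groups overlapped on CPM, and the log2 fold change of -0.84 (SE 0.52, edgeR adjusted p = 0.736) was -0.21 without shTPX2 2.

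VIM (vimentin), the intermediate filament used most to score the transition, was close to absent at 1.91 and 2.33 TPM in the control libraries and 2.80 and 1.73 TPM under shTPX2. The groups overlapped, the log2 fold change was 0.22 (SE 0.44, adjusted p = 0.924), and it was -0.19 without shTPX2 1. EPCAM exceeded VIM by 71.7 to 138 times in TPM, with shTPX2 1 lowest and shTPX2 2 highest. The hyaluronan receptor CD44 was abundant at 267 to 412 TPM and was lower in both shTPX2 libraries. On log2 CPM minus the mean of the 4 libraries, shTPX2 1 was only narrowly below shNC 1, at -0.073 against -0.065. The log2 fold change of CD44 was -0.20 (SE 0.19, edgeR adjusted p = 0.822).

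In the TGF-beta pathway the ligands differed from each other. TGFB2 (chr1:218345336-218444619) was at 27.9 and 63.1 TPM in the control libraries and 13.7 and 10.9 TPM under shTPX2. Both shTPX2 libraries were below both controls, which themselves differed widely, and the log2 fold change was -1.75 (SE 0.38, edgeR adjusted p = 0.460, DESeq2 adjusted p = 0.00113). The change was -2.21 without shNC 1, which left the higher control shNC 2 alone, and -1.08 without shNC 2. Other fits that left out a library lay between these values. TGFB1, the more abundant ligand, was at 255 and 223 TPM in the control libraries and 192 and 222 TPM under shTPX2, a log2 fold change of -0.10 (SE 0.18, adjusted p = 0.916) that was 0.04 without shNC 1. The ratio of TGFB1 to TGFB2 TPM was 9.17 and 3.53 in shNC and 14.0 and 20.3 in shTPX2.

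TGFBR1, the type I receptor kinase, was at 28.9 and 21.2 TPM in the control libraries and 15.2 and 16.2 TPM under shTPX2, with both shTPX2 libraries below both controls. Its log2 fold change was -0.56 (SE 0.21, edgeR adjusted p = 0.601), with an unadjusted p under 0.05 in 1 of the 4 fits that left out a library, and -0.29 without shNC 1. The type II receptor TGFBR2 was at 18.4 to 20.8 TPM in all 4 libraries, a log2 fold change of 0.05 (SE 0.16). The signal carrier SMAD3 was at 58.3 to 84.0 TPM with a fold change of 0.01 (SE 0.23, log2). SMAD7, the inhibitory SMAD that TGF-beta signalling induces, was at 12.6 and 11.2 TPM in the control libraries and 8.17 and 8.24 TPM under shTPX2. The groups did not overlap for SMAD7, but its log2 fold change of -0.41 (SE 0.24) had an adjusted p of 0.708. The induced matrix protein TGFBI was high in shNC 2 only (76.8 TPM against 41.1 to 42.2), and THBS1, a matrix protein that activates latent TGF-beta, ran from 8.75 to 19.0 TPM with overlapping groups.

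The sequences before the starts of FN1, TGFB2 and MMP14 are shown because these 3 genes had the differences that both edgeR, before adjustment, and DESeq2, after it, called. Each is 250 RefSeq bases (GRCh38.p14) read 5′ to 3′ towards the gene, at chr2:215436069-215436318 on the minus strand, chr1:218345086-218345335 on the plus strand and chr14:22836335-22836584 on the plus strand, where capitals mark a match to CACCTG on either strand or to TGACGTCA. The latter is the cAMP response element, which reads the same on both strands and was in 1.65% of windows.
FN1: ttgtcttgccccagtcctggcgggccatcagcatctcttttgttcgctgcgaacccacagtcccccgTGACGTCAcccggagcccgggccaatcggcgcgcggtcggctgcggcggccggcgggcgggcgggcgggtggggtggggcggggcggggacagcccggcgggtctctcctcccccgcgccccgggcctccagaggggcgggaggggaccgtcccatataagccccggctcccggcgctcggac
TGFB2: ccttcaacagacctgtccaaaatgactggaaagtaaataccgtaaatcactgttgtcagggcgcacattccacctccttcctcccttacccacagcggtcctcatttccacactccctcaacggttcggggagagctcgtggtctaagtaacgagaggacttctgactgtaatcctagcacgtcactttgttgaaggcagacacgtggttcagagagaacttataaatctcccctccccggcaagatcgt
MMP14: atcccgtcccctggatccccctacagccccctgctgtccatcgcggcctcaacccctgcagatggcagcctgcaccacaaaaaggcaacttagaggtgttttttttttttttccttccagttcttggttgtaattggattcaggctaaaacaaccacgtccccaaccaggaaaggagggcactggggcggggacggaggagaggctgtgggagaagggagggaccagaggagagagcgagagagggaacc
FN1 held 1 TGACGTCA, with its first base at position -183 from the start, and none of the 3 held CACCTG in this window. TGACGTCA was in 2 of the 77 windows of the members. The other was the inner start window of CLDN7, an epithelial gene with a log2 fold change of 0.20.

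**Figure D2:**
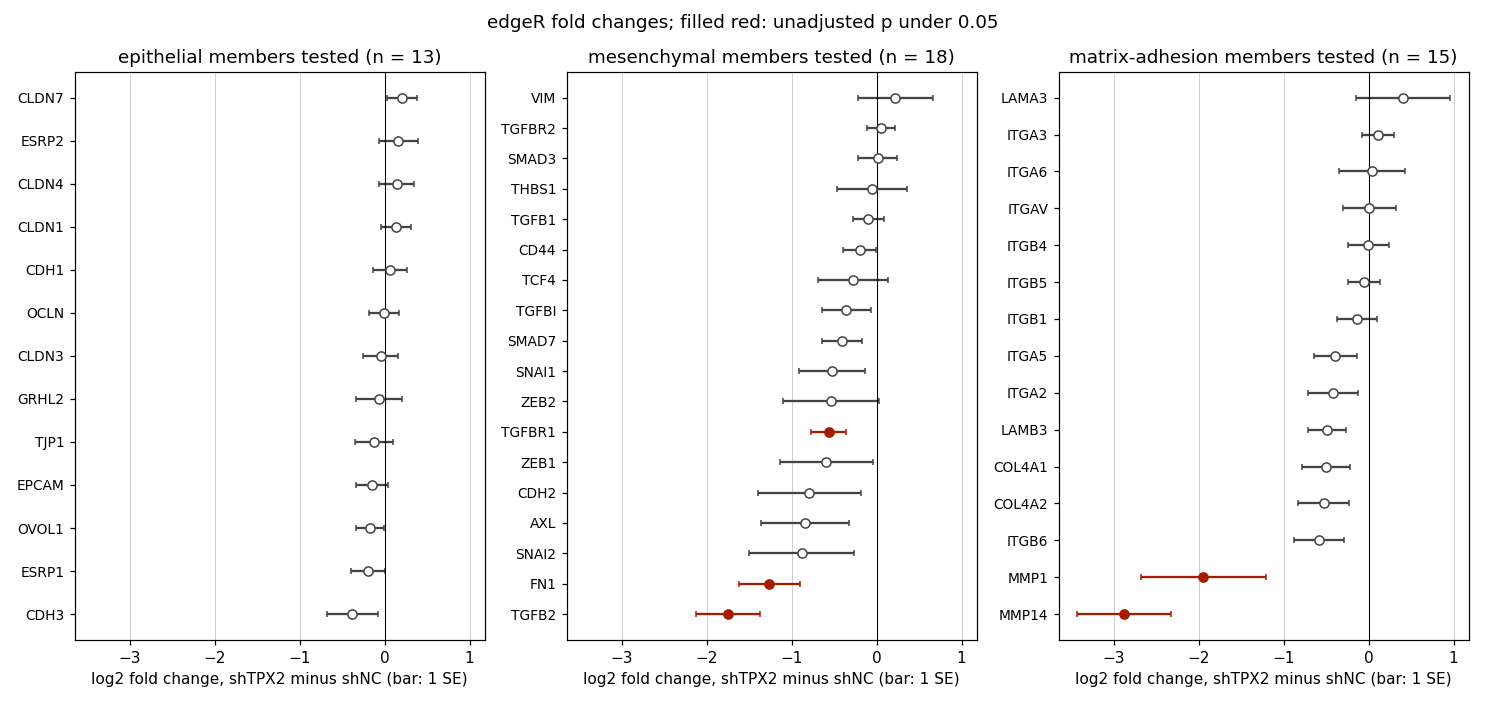
Fitted log2 fold change (shTPX2 minus shNC, edgeR) of the 46 tested genes, 1 point per gene with a bar of 1 SE, in 3 panels on the same axis. Filled red points mark the 5 genes with an unadjusted p under 0.05, all below 0, and the epithelial points lie between -0.38 and 0.20.

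The integrins, the receptors that tie cells to matrix, were expressed at 14.0 to 370.2 TPM and gave overlapping groups on CPM for all 9 genes, with shTPX2 2 the lowest library for each. ITGA3, the laminin-332 receptor chain and the most abundant integrin, was at 344 and 343 TPM in the control libraries and 370.2 and 315 TPM under shTPX2, a log2 fold change of 0.11 (SE 0.19). The common partner ITGB1 was at 291, 354, 312 and 223 TPM in the order shNC 1, shNC 2, shTPX2 1 and shTPX2 2, a change of -0.14 (SE 0.24). ITGB4, its hemidesmosomal counterpart in the ITGA6 pair, had a change of -0.0027 (SE 0.24), ITGA6 of 0.04 (SE 0.39), ITGAV of 0.0059 (SE 0.31) and ITGB5 of -0.06 (SE 0.18).

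The fibronectin receptor chain ITGA5 had a log2 fold change of -0.40 (SE 0.25, adjusted p = 0.738) and the collagen receptor chain ITGA2 of -0.42 (SE 0.29, adjusted p = 0.769), and ITGA2 was 0.03 without shNC 1. ITGB6, which with ITGAV activates latent TGF-beta on epithelia, was at 23.4 and 35.9 TPM in the control libraries and 21.8 and 14.0 TPM under shTPX2. In TPM both shTPX2 libraries were below both controls, shTPX2 1 only narrowly, and the log2 fold change was -0.59 (SE 0.29, edgeR adjusted p = 0.679), or -0.29 without shTPX2 2.

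Among the basement membrane chains, LAMB3, the beta3 chain of laminin-332, was at 139 and 186 TPM in the control libraries and 118 and 92.6 TPM under shTPX2. The groups did not overlap, and the log2 fold change was -0.49 (SE 0.22, edgeR adjusted p = 0.653), or -0.31 without shTPX2 2. Its partner LAMA3, the alpha3 chain, was far less abundant per length and followed no group: 6.09 and 9.05 TPM in the controls, against 14.9 and 4.54 TPM under shTPX2, the highest and the lowest library. The log2 fold change of LAMA3 was 0.40 (SE 0.55), 1.05 without shTPX2 2, where its unadjusted p was under 0.05, and -0.79 without shTPX2 1.

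COL4A1 and COL4A2, the chains of the common collagen IV network, were measured together. COL4A1 was at 7.66 and 9.81 TPM in the control libraries and 6.94 and 4.33 TPM under shTPX2, and COL4A2 at 15.9 and 22.8 TPM in the control libraries and 15.3 and 9.15 TPM under shTPX2. Their log2 fold changes were -0.50 (SE 0.28, adjusted p = 0.706) and -0.53 (SE 0.30, adjusted p = 0.707), each -0.19 without shTPX2 2. The ratio of COL4A2 to COL4A1 TPM was 2.07, 2.33, 2.21 and 2.11 in the 4 libraries, so the 2 chains stood in nearly the same proportion in every library.

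These genes start head to head on chromosome 13, COL4A1 at base 110307157 on the minus strand and COL4A2 at base 110307284 on the plus strand, so 126 bases separate the RefSeq starts. That stretch is shown because the starts of both members flank it. It is chr13:110307158-110307283 (GRCh38.p14), plus strand, read towards COL4A2, and it held neither motif.
COL4A1-COL4A2: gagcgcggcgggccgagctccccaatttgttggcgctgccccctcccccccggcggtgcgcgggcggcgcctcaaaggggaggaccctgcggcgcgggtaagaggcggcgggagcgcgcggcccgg

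A second head-to-head pair of collagen IV genes, COL4A3 and COL4A4, are not members and belong to the wider list of basement membrane genes. COL4A3 was at 2.12 and 1.34 TPM in the control libraries and 0.51 and 0.31 TPM under shTPX2, and COL4A4 at 1.45 and 0.97 TPM in the control libraries and 0.29 and 0.17 TPM under shTPX2. The groups did not overlap in either gene, with log2 fold changes of -2.38 (SE 0.44, edgeR adjusted p = 0.439, DESeq2 adjusted p = 0.00443) and -2.59 (SE 0.44, edgeR adjusted p = 0.437, DESeq2 adjusted p = 0.00146). In all 4 fits that left out a library, both had an unadjusted p under 0.05. The RefSeq spans of these genes leave 135 bases between them on chromosome 2 (chr2:227164489-227164623, GRCh38.p14), shown on the plus strand towards COL4A3 for comparison with the pair above, and they held neither motif.
COL4A4-COL4A3: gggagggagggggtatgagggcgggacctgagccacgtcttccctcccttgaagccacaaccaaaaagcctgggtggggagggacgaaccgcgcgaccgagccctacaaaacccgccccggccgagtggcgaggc

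The metalloproteinases were low but gave the largest fold change of any member. MMP14 (MT1-MMP, the membrane-bound collagenase, chr14:22836585-22847758) was at 1.91 and 3.94 TPM in the control libraries and 0.25 and 0.47 TPM under shTPX2, from 72, 147, 10 and 18 counts. Both shTPX2 libraries were far below both controls, and the log2 fold change was -2.88 (SE 0.55, edgeR adjusted p = 0.439, DESeq2 adjusted p = 0.00265), between -3.37 and -2.30 with any 1 library left out. MMP1, the interstitial collagenase, had 13 and 12 counts in shNC and 5 and 1 in shTPX2. Its log2 fold change of -1.95 (SE 0.74, edgeR adjusted p = 0.606) rested on those few reads, and the unadjusted p was under 0.05 in 1 of the 4 fits that left out a library.

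**Figure D3:**
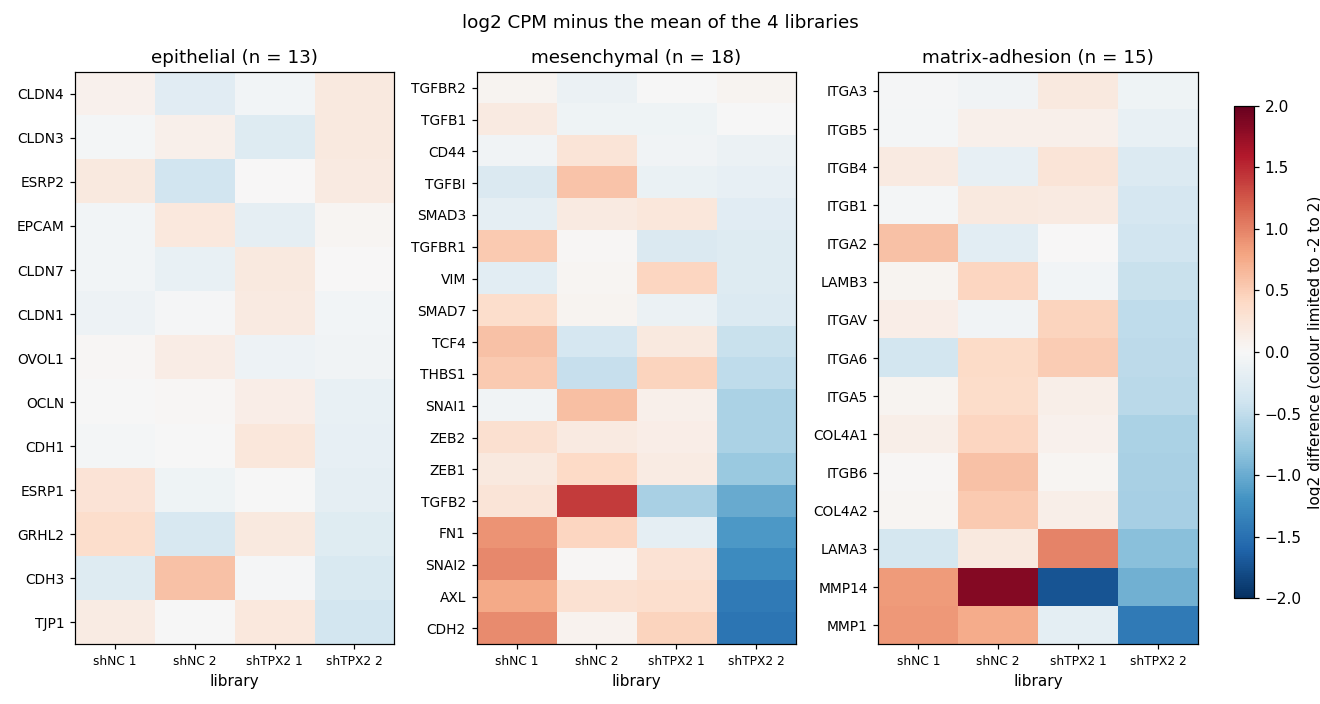
Log2 CPM of the 46 tested genes minus the mean of the 4 libraries, 1 row per gene and 1 column per library, ordered within each panel by shTPX2 2. The shTPX2 2 column is the lowest (blue) for 33 of the 46 genes, while the epithelial panel is paler, its largest value being 0.59 for CDH3 in shNC 2.

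The differences were uneven between the shTPX2 libraries. The library shTPX2 2 had the lowest value in 33 of the 46 tested genes (71.7%), against 27.1% of all tested genes. That included all 9 integrins, all 4 laminin and collagen genes and all 10 tested transition factors and mesenchymal markers, but 5 of the 13 epithelial genes. Without shTPX2 2 the median log2 fold change was -0.17 for the mesenchymal and -0.11 for the matrix-adhesion genes, and without shTPX2 1 it was -0.63 and -0.70. Without shNC 1 the mesenchymal and matrix-adhesion medians were -0.32 and -0.29, and without shNC 2 they were -0.52 and -0.24. In 23 of the 46 genes the sign held in every fit that left out a library, 21 of them lower in shTPX2. The matching share of all genes was not worked out, so these counts do not set the members apart. On CPM, both shTPX2 libraries were below both shNC libraries for 12 members, where 20.2% of all genes were: 7 mesenchymal, 4 matrix-adhesion and 1 epithelial (OVOL1). Expression of TPX2 was nearly equal in the 2 shTPX2 libraries, and what set shTPX2 2 apart was not tested.

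Wider lists of the same structures were read from the same fit. They were chosen with earlier results of these data known, so they are not independent support for the member results. Of 14 tested further mesenchymal markers, 7 (50%) were lower at an unadjusted p under 0.05 and 0 were higher, beside 4.9% and 3.13% of all genes. The median log2 fold change of the list was -0.84. The 3 with the smallest p were CALD1 (caldesmon, an actin-binding protein), TNC (tenascin-C) and SPARC (osteonectin). CALD1 was at 51.9 and 55.4 TPM in the control libraries and 24.3 and 17.6 TPM under shTPX2, a log2 fold change of -1.24 (SE 0.21, edgeR adjusted p = 0.437, DESeq2 adjusted p = 0.000573). TNC was at 7.72 and 13.7 TPM in the control libraries and 4.60 and 3.72 TPM under shTPX2, a change of -1.18 (SE 0.29, DESeq2 adjusted p = 0.0420), and SPARC at 1.46 and 3.06 against 0.53 and 0.55 TPM, a change of -1.93 (SE 0.49). With 1 library left out the change ran from -1.51 to -1.01 for CALD1, from -1.49 to -0.79 for TNC and from -2.35 to -1.33 for SPARC. The median of the list ran from -1.24 to -0.66. PDGFRB, the fibroblast marker with enough reads to test, passed the filter only through shNC, had an unadjusted p under 0.05 in 1 of the 4 fits that left out a library, and was at 0.34 to 0.40 TPM in shNC and 0.13 TPM in both shTPX2 libraries, while LUM was at 0 and DCN at 0 to 0.05 TPM.

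The other matrix lists also had medians below 0 with all 4 libraries in, with fewer genes lower at an unadjusted p under 0.05. Of all genes 4.9% were lower at that threshold. Of 14 tested basement membrane genes, 2 (14.3%) were lower, COL4A3 and COL4A4. The median of that list was -0.36, or -0.14 without shTPX2 2 and -0.64 without shTPX2 1. Of 11 further integrins 3 were lower, with a median of -0.44: ITGB8, a latent TGF-beta receptor (5.67 and 4.65 against 2.64 and 3.59 TPM), and ITGAX and ITGB3, both of which passed the filter only through shNC and were highest in shNC 2, at 1.54 and 2.29 TPM. Without shNC 2 neither ITGAX nor ITGB3 had an unadjusted p under 0.05. The median of these further integrins ran from -0.71 (without shTPX2 2) to -0.20 (without shTPX2 1). Of 14 further matrix proteases and inhibitors 2 were lower, the collagenase MMP13 (-1.16, SE 0.38) and the stromelysin MMP11 (-0.97, SE 0.40). The median of that list was -0.18, or -0.33 without shTPX2 1 and -0.03 without shNC 2. Of 20 focal adhesion genes 1 was lower, a share (5%) close to the 4.9% of all genes, and the median of -0.07 turned to 0.08 without shNC 1 or without shTPX2 2. That gene was TNS1 (tensin 1, an actin and integrin linker), which was at 10.4 and 12.7 TPM in the control libraries and 6.05 and 5.54 TPM under shTPX2, a log2 fold change of -0.87 (SE 0.18, DESeq2 adjusted p = 0.0369).

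Of 23 further TGF-beta pathway genes none had an unadjusted edgeR p under 0.05, beside 8.03% of all genes in either direction. None met the criteria of the study, beside 14.2% of all genes, or the DESeq2 threshold, and the median of the list was -0.12. That median depended on the library: it was -0.24 without shTPX2 1, -0.15 without shNC 2, -0.08 without shTPX2 2 and -0.0042 without shNC 1. The epithelial lists had medians near 0 that depended on the library, from -0.11 to 0.06 for the adherens junction and desmosome genes and from -0.13 (without shNC 1) to 0.17 (without shNC 2) for the further epithelial regulators. Of 18 adherens junction and desmosome genes 3 (16.7%) were lower, beside 4.9% of all genes, and the median was 0.02. The 3 were the nectin NECTIN3 (-0.79, SE 0.27), its partner AFDN (afadin, -0.44, SE 0.17) and DSP (desmoplakin, -0.42, SE 0.17). Of 14 further tight junction genes none had an unadjusted edgeR p under 0.05, beside 8.03% of all genes in either direction. None passed DESeq2, and the median of the list was -0.02. By the criteria of the study 2 were higher and 2 lower, beside 6.24% and 7.99% of all genes. Of 16 further epithelial regulators 1 was higher, beside 3.13% of all genes. By the criteria of the study 2 were higher (KLF4 and GRHL3) and 1 (6.25%) was lower (FOXA2), beside the same 6.24% and 7.99% of all genes. KLF4, a Krüppel-like factor, was at 19.3 and 16.8 TPM in the control libraries and 31.8 and 22.0 TPM under shTPX2 (log2 fold change 0.70, SE 0.24), and the median of the list was 0.01. GRHL3, FOXA2 and TWIST2 were named after their values were seen. Among the genes named from these lists, an unadjusted p under 0.05 held in all 4 fits that left out a library for TNS1, in 2 for NECTIN3, KLF4 and MMP13, in 1 for AFDN, ITGB8 and MMP11, and in 0 for DSP.

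CDH5, the cadherin of endothelial junctions, was higher in shTPX2. It was at 14.4 and 18.1 TPM in the control libraries and 26.7 and 30.5 TPM under shTPX2. Both shTPX2 libraries were above both controls, with a log2 fold change of 0.94 (SE 0.18, edgeR adjusted p = 0.439, DESeq2 adjusted p = 0.0184) and an unadjusted p under 0.05 in all 4 fits that left out a library. PECAM1, the other endothelial marker above 1 TPM in every library, was at 5.38, 14.4, 4.20 and 5.92 TPM in the order shNC 1, shNC 2, shTPX2 1 and shTPX2 2, with overlapping groups and a log2 fold change of -0.79 (SE 0.46). The endothelial genes KDR, TEK and ERG were at 0 to 0.02 TPM.

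**Figure D4:**
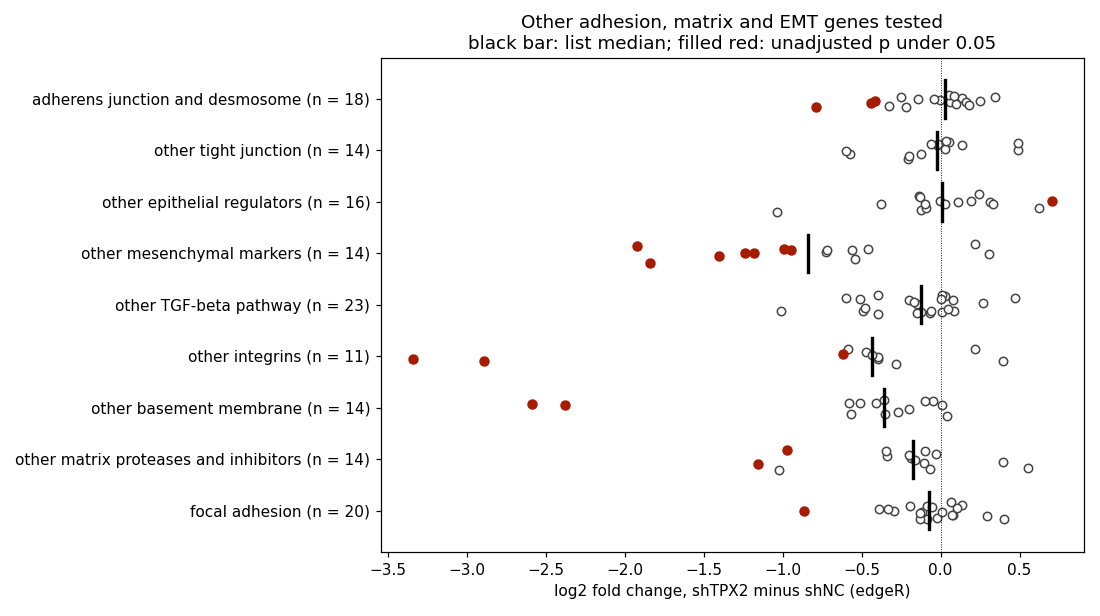
Log2 fold change (shTPX2 minus shNC, edgeR) of the tested genes in 9 wider lists, 1 point per gene, with the list median as a black bar and genes with an unadjusted p under 0.05 in red (vertical scatter within a row has no meaning). The further mesenchymal markers have the lowest median at -0.84, and the 3 epithelial lists have medians between -0.02 and 0.02 with all 4 libraries in.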

How the data were processed

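RNA from the 4 PC9 libraries was poly(A)-selected. The authors deposited, for 18134 genes, an expected count per library, which is an estimated count with no normalization for depth, and TPM values, scaled by transcript length to the same total. According to the methods of the study, SOAPnuke filtered the reads, HISAT2/Bowtie2 placed them and RSEM or StringTie did the quantification, whereas the submitters' processing notes name HISAT2, featureCounts, DESeq2 and the build GRCh38. The annotation and strand setting are not given in the sources used here, so antisense or overlapping genes and near-identical copies could share reads. The deposited FPKM values were not used. The authors' group means matched the mean of the 2 libraries listed for only 2.80% (shNC) and 3.34% (shTPX2) of genes within 0.01, and were not used either.

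Expected counts were rounded to whole numbers, kept by filterByExpr (14048 genes), scaled by TMM and tested with the edgeR 4.0.16 quasi-likelihood test under R 4.3.3, with Benjamini-Hochberg adjustment over all tested genes. All p-values are two-sided, and those not named otherwise are edgeR values. limma 3.58.1 voom with the thresholds of the study and DESeq2 1.42.0 were further tests. An exact permutation test of 2 against 2 libraries cannot give a p below 0.333. No gene of the table was left out of the fit for its symbol, and all 48 symbols matched. In the wider lists CCN1 and CCN2 were matched by gene number, and POSTN and TYROBP were not analysed here. Alternatives were other scalings, filters and tests, a replicate block, and leaving out each library. The scripts were tested on simulated data. Start windows came from RefSeq (GRCh38.p14). The members and lists were chosen with earlier results of these data known. Named genes were the members with an unadjusted edgeR p under 0.05 or past the thresholds of the study, CDH1, CDH2, EPCAM, VIM, ZEB1, SNAI2, FN1, TGFB1 and TGFB2 with their chain partners, and from each wider list up to 3 genes with the smallest unadjusted p under 0.05. Other members are given with their values to account for all 48.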

Additional observations from a re-analysis of the deposited data

How the results depend on the processing

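With 2 libraries per group, the spread between libraries limits these results, and so does depth for genes of a few reads such as MMP1, TWIST1 and the ZEB genes. Fits that left out a library had 1 residual degree of freedom, with the lone library assumed to vary like the other group. Across them, members lower at an adjusted edgeR p under 0.05 numbered 0 to 1, and DESeq2 gave 3. Members lower at an unadjusted p under 0.05 numbered 3 to 12, and higher 0 to 1 (LAMA3, without shTPX2 2). By the criteria of the study 4 to 14 were lower and 0 to 1 higher, and with an adjusted p in place of the unadjusted one 0 were lower. The share of all genes called was not worked out for the fits that left out a library. Their counts of members therefore cannot be set against the whole table. The epithelial median was -0.14 to 0.065 with a library left out and -0.11 by library size alone. With a library left out the mesenchymal median was -0.63 to -0.17 and the matrix-adhesion median -0.70 to -0.11. The spread of these 2 medians between replicates (SD 0.31 and 0.35) comes from the same libraries, so it cannot decide whether they held. The sign turned for CDH1 by library size alone (-0.0097) and without shTPX2 1 (a range of -0.14 to 0.25 over the libraries left out), for VIM without shTPX2 1 (-0.19 to 0.54), and for TGFB1 without shNC 1 (-0.23 to 0.041). The cause of these shifts beyond the libraries and scalings themselves was not tested. TMM against library size alone moved the median of all genes from -0.01 to -0.08.

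Libraries of both groups share the numbers 1 and 2, but nothing in the labels says that a number marks a shared culture. Same-numbered libraries deviated together with a correlation of 0.18 across genes, which are not independent. With the replicate block, 8 members rather than 5 were lower at an unadjusted p under 0.05, and 10 rather than 8 by the criteria of the study. The share of all genes called with the block was not worked out, so these rises cannot be set against the whole table.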
